A study of Mus musculus with 10 samples.

Results

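Macrophages grown from C57BL/6J bone marrow that had received 10 nM Kdo2-lipid A for 1 h were compared with untreated macrophages, labelled 0 nM and 0 h, from the same 2 experiments. Kdo2-lipid A is the membrane anchor of bacterial lipopolysaccharide with its innermost sugars, and it activates the receptor TLR4. The comparison takes 4 of the 10 libraries of the series, 2 in each group, one per independent experiment. The other 6 libraries held cells given 0.03 nM for 1 h, 0.03 nM for 2 h or 10 nM for 2 h. All groups shared the strain and 6 days of differentiation with recombinant mouse M-CSF at 30 ng/ml. The labels give no vehicle control, no untreated group at 1 h and not the mice behind each experiment. Cells given 0.03 nM for the same 1 h differed from untreated cells in 184 genes that were higher (1.42% of those tested) and 14 that were lower (0.108%), and the 10 nM 1 h cells differed from these 0.03 nM cells in 2320 genes higher (18.0%) and 2238 lower (17.3%). Poly-A RNA was sequenced in bulk, where fewer cells of a type and less RNA per cell cannot be told apart. Where a pair of values is given for a group, experiment 1 comes before experiment 2. Of the 23284 genes in the count table, all 12918 with enough counts to test are covered here, and 6164 had no count in any library.

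TLR4 sits on the macrophage surface with its co-receptor CD14 and signals through the adaptor MyD88 and, from endosomes, through TRIF. Both arms release the transcription factor NF-kB from its inhibitors and activate MAP kinases, and the TRIF arm also activates the interferon regulatory factor IRF3. The first wave of target genes needs no new protein: it holds transcription factors, cytokines and chemokines, and the inhibitors that later shut the response down. Genes that depend on secreted type I interferon follow.

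The cells kept the profile of macrophages. The 25 macrophage identity genes summed to 43018 to 44037 CPM in 10 nM 1 h cells and to 37954 to 40293 CPM in untreated cells. CPM is a read count relative to library size after scaling by trimmed mean of M-values (TMM). The higher sum in 10 nM 1 h cells rests on this scaling. Scaled by library totals alone, 12 of the 25 genes were called lower and 3 higher in 10 nM 1 h cells. Tested markers of neutrophils (11 of 13) summed to 121 to 125 CPM in 10 nM 1 h cells and to 92.04 to 96.3 CPM in untreated cells. Of the other lists, 5 of 7 B cell, 3 of 10 T and NK cell and 10 of 11 dendritic cell genes were tested. For erythroid and mast cells, 1 of 8 and 2 of 7 were. The tested members of these lists summed to between 1.33 CPM (erythroid) and 38.3 CPM (T and NK) in the 4 libraries. Hbb-b1, Hbb-b2, Tpsb2 and Cma1 were at 0 in all 4. Stromal and endothelial markers, 14 of 15 tested, were higher in experiment 2 in both groups. Their sums were 60.7 CPM in experiment 1 and 117 CPM in experiment 2 of the 10 nM 1 h cells. In the untreated cells of those experiments they were 56.3 and 106 CPM. Total counts were 39107116 and 42167096 in the 10 nM 1 h libraries and 36676424 and 35989957 in the untreated libraries.

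One hour at 10 nM changed 36.9% of the genes tested, in about equal numbers up and down, but with much larger rises than falls. Transcripts for chemokines, interleukins and their feedback inhibitors rose, many of them over 100-fold, and zinc finger genes and Txnip led the falls. By edgeR's quasi-likelihood test with Benjamini-Hochberg adjustment at 0.05, 4761 of 12918 genes differed, 2393 higher (18.5%) and 2368 lower (18.3%) in 10 nM 1 h cells. Of the rises, 919 reached 2-fold (7.11% of genes tested), 482 reached 4-fold (3.73%), 253 reached 10-fold and 71 reached 100-fold. Of the falls, 710 reached 2-fold (5.50%) and 207 reached 4-fold. Below, rose and fell are used only of genes this test called, or of genes called by another fit that the sentence names. An approximate standard error follows ±: the log2 fold change divided by the root of the test's F statistic. It can be too small where a group has few reads. Gene lists were chosen with earlier results of these data known, so their shares beside those of all genes are description. All 4761 genes had the same sign in both experiments, but they were picked by a test on these same libraries, so this is no separate check. The 482 genes raised at least 4-fold took 13.8% of all counts in each 10 nM 1 h library, against 1.39% and 1.49% in the untreated libraries. This shift in composition bears on the scaling: with library totals alone, the median log2 fold change of all genes dropped by 0.37, and 1280 genes were called higher and 6755 lower, so small changes below are relative to the TMM scale. Among markers of other cell types, Mpo and Csf3r of neutrophils, Zbtb46 of dendritic cells (3 dendritic genes with the experiment as a block) and Cd247 of T and NK cells were called higher, of which Mpo, Csf3r and Cd247 were not called with library totals. Cd247 lost its call when any 1 of the 4 libraries was left out, Mpo without each of them but experiment 2 of the 10 nM 1 h cells, and Zbtb46 without that library. The part of such cells in the results was not tested.

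Chemokines, the secreted proteins that draw neutrophils and monocytes to a site of infection, were among the largest rises. Of 21 chemokine genes tested, 19 rose and none fell, 16 of them at least 4-fold, with a median log2 fold change of 5.71 (5.40 with genes at 0 in untreated cells set at their lower bound), against -0.02 over all genes tested. Ccl6 and Ccl8 were the 2 not called, with log2 fold changes of 0.04 ± 0.07 and -0.05 ± 0.32. Cxcl1, Cxcl2 and Cxcl3 encode neutrophil attractants and lie together on chromosome 5. Cxcl1 (chr5:91320271-91322141, mm9 as in the count table) stood at 832 and 698 CPM in 10 nM 1 h cells and at 0.167 and 0.265 CPM in untreated cells, a 3494-fold rise (log2 11.77 ± 0.18). Cxcl2 (chr5:91332925-91334964) stood at 3557 and 3348 CPM in 10 nM 1 h cells and at 1.12 and 1.69 CPM in untreated cells. The groups did not overlap for either gene. Per length, Cxcl2 ranked 11 of all genes tested in 10 nM 1 h cells and 9917 in untreated cells by RPKM, the level per kilobase of exon. Cxcl3 (chr5:91215129-91217116) rose 205-fold to a lower level, 37.3 and 37.8 CPM in 10 nM 1 h cells against 0.191 and 0.169 CPM in untreated cells.

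The promoters of these 3 chemokine genes are shown because they carry the same run of letters, beside Nfkbia, which also rose, and Txnip, the most abundant gene lowered at least 4-fold. Each is 300 bases of RefSeq sequence on GRCm38.p6, 250 before and 50 after the start, on the gene's strand, and capitals mark matches to the NF-kB consensus on either strand (overlapping matches merged).
Cxcl1, chr5:90890995-90891294, plus strand: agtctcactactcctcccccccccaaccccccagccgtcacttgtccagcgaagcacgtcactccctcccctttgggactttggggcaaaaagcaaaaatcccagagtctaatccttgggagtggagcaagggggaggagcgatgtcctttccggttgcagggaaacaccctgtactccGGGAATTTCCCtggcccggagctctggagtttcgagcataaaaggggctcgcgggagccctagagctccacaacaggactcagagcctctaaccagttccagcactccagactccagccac
Cxcl2, chr5:90903649-90903948, plus strand: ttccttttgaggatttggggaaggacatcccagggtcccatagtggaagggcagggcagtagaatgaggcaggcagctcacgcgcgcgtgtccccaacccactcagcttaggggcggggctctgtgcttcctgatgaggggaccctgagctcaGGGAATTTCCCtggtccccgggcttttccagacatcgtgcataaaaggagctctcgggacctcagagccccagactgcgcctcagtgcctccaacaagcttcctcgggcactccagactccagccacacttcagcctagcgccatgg
Cxcl3, chr5:90785851-90786150, plus strand: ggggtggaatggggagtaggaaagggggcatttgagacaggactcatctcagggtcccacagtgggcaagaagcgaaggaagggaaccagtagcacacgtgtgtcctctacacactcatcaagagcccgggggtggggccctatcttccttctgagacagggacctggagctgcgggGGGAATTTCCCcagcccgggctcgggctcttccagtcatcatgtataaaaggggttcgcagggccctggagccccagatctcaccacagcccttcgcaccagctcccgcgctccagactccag
Nfkbia, chr12:55492598-55492897, minus strand: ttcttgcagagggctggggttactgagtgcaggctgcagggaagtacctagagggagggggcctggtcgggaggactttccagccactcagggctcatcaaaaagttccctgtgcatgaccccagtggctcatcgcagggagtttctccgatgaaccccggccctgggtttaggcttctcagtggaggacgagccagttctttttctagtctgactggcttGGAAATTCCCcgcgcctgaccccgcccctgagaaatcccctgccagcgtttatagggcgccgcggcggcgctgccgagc
Txnip, chr3:96557707-96558006, plus strand: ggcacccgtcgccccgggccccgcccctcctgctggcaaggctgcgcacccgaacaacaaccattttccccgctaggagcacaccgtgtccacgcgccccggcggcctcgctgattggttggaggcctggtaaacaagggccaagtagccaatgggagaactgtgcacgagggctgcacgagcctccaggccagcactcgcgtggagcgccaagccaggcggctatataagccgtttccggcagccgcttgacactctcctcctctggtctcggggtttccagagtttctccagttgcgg
The match begins 71 bases before the start in Cxcl1, 97 in Cxcl2, 73 in Cxcl3 and 29 in Nfkbia, and these letters are not in the Txnip window.

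Across the table, that consensus was found in 20.8% of the 467 RefSeq promoters of genes raised at least 4-fold and in 24.4% of the 168 of genes raised at least 16-fold, against 10.4% of the 12853 promoters of all genes tested. The share was 12.7% for genes raised under 2-fold and 7.49% for genes lowered at least 2-fold. Both strands were searched for 5 other motifs. AP-1 (TGANTCA) was found in 9.85% of promoters of genes raised at least 4-fold and 5.45% of all, and the interferon-response repeat (GAAA, any 2 bases, GAAA) in 5.996% and 3.28%. The TATA box (TATAAA) was found in 14.3% and 7.41%, the CArG box in 2.36% and 1.29%, and the CRE (TGACGTCA) in 3.64% and 2.99%. These shares describe letters in a window, and matches of different motifs may overlap. The median GC content was 59.3% in the promoters of genes raised at least 4-fold and 60.3% in all.

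Most CC chemokines rose too. Ccl3 and Ccl4, which attract monocytes and other leukocytes, are neighbours on chromosome 11. Ccl4 (chr11:83476086-83478185) reached 1526 and 1552 CPM in 10 nM 1 h cells, against 7.07 and 8.15 CPM in untreated cells, and Ccl3 (chr11:83461345-83462880) reached 1334 and 1287 CPM in 10 nM 1 h cells, against 17.6 and 16.6 CPM in untreated cells. Ccl22, a ligand of CCR4, rose 52.4-fold. Ccl5 and Cxcl10, which also answer to interferon, differed more between the experiments at 0.03 nM than at 10 nM. Ccl5 was at 216 and 249 CPM in 10 nM 1 h cells and at 16.5 and 22.9 CPM in untreated cells (log2 fold change 3.56 ± 0.57). Cxcl10, a T cell attractant, was at 1532 and 1422 CPM in 10 nM 1 h cells and at 16.6 and 15.8 CPM in untreated cells. At 0.03 nM for 1 h, Cxcl10 had 33.02 and 74.2 CPM and Ccl5 15.9 and 49.6 CPM, and the 10 nM 1 h cells were higher than these for both genes (log2 differences 4.78 ± 0.38 and 2.82 ± 0.55).

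Inflammatory cytokines and growth factors changed as widely. Of 23 tested, 20 rose and none fell, 17 of them at least 4-fold, with a median log2 fold change of 6.22, or 4.20 with genes at 0 in untreated cells set at their lower bound. Ltb, Tnfsf10 and Inhba were not called, and Lta was not tested. Il1b, whose product is processed by inflammasomes to the fever-inducing interleukin-1 beta, was the most abundant: 5176 and 5422 CPM in 10 nM 1 h cells and 7.50 and 10.1 CPM in untreated cells, a 603-fold rise. It took 0.458% and 0.486% of all counts in the 10 nM 1 h libraries, and by RPKM it ranked 8 in 10 nM 1 h cells, next to Actb at 7, and 6569 in untreated cells. Tnf, the other classical alarm cytokine, stood at 3835 and 3662 CPM in 10 nM 1 h cells and at 7.77 and 9.88 CPM in untreated cells (425-fold). Il1a, an alarm cytokine that acts without processing, stood at 597 and 646 CPM in 10 nM 1 h cells and at 0.119 and 0.482 CPM in untreated cells. An exon of Il1a overlaps Gm14023 on the opposite strand, and whether reads were counted by strand is not given in the sources used here, so reads of the pair may be mixed.

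Interleukins that steer T cells appeared from near 0. Il12b, the p40 chain shared by interleukin-12 and interleukin-23, was at 234 and 222 CPM in 10 nM 1 h cells and at 0.5 and 0.53 CPM in untreated cells (441-fold). Il6 was at 74.8 and 69.1 CPM in 10 nM 1 h cells, against 1 read in all in untreated cells, a count ratio of 5993 (95% exact counting interval 1075 to 236770.0). Il23a, the partner of Il12b in interleukin-23, had 2 reads in untreated cells and 18.1 and 21.2 CPM in 10 nM 1 h cells (ratio 822, interval 227 to 6797). Csf2, the gene of the growth factor GM-CSF, had no read in untreated cells and 26.2 and 23.8 CPM in 10 nM 1 h cells, at least 694-fold higher when the untreated group is set at a floor of 3 counts. Intervals and floors cover counting error only. In all, 37 of the raised genes had no read in the untreated libraries and 23 had 1 to 3.

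Ifnb1, the gene of interferon beta, was raised within the hour. It stood at 103 and 94 CPM in 10 nM 1 h cells and at 0.0953 and 0.145 CPM in untreated cells (798-fold), with 0.289 and 0.383 CPM at 0.03 nM for 1 h. The difference between the doses was 8.18 ± 0.25 on the log2 scale, among the 5 largest of the genes changed here. After 2 h at 10 nM it was at 32.96 and 46.3 CPM, lower than at 1 h (log2 -1.31 ± 0.15). Il10, the main anti-inflammatory cytokine of macrophages, followed the same course, with 165 and 153 CPM in 10 nM 1 h cells and 4.0 and 5.50 CPM in untreated cells, and 72.3 and 82.2 CPM after 2 h at 10 nM (log2 over 1 h -1.04 ± 0.22).

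**Figure D1:**
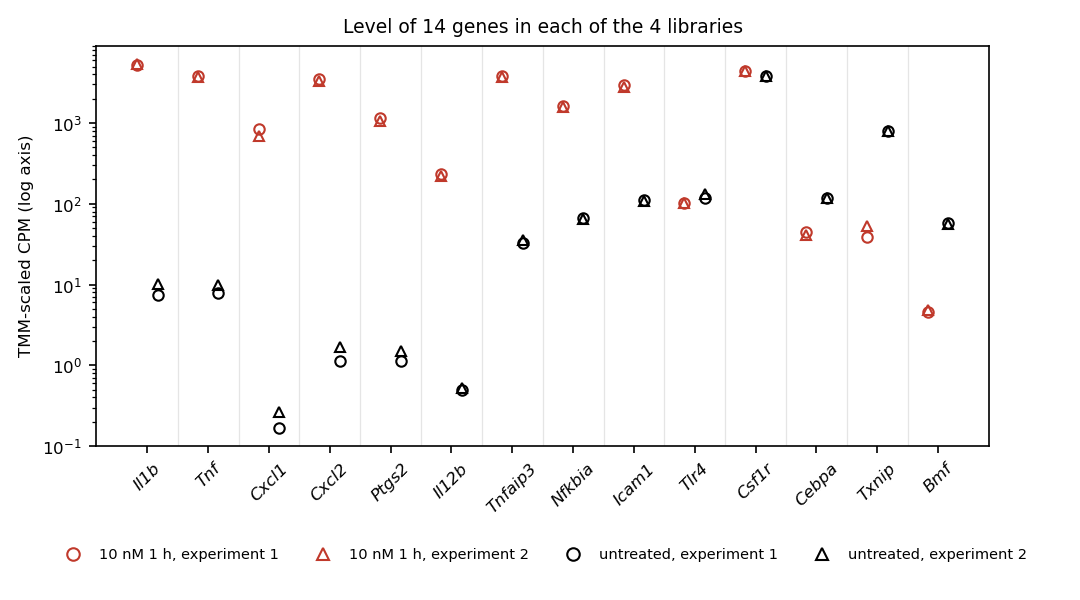
Level of 14 genes in each of the 4 libraries in TMM-scaled CPM on a log axis, with 10 nM 1 h cells in red on the left of each pair and untreated cells in black on the right, circles for experiment 1 and triangles for experiment 2. The 2 experiments lie close together for each gene, and the groups stand well apart for all but Tlr4 and Csf1r.

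Immediate-early genes, transcription factors and early response genes that respond within minutes, rose nearly throughout. Of 35 tested, 31 rose, 19 of them at least 4-fold, and 2 fell, with a median log2 fold change of 2.43. Maff, a small Maf factor, showed the largest rise of the list, with 304 and 277 CPM in 10 nM 1 h cells and 0.881 and 0.699 CPM in untreated cells. Egr2, a zinc finger factor of the early growth response family, was at 457 and 442 CPM in 10 nM 1 h cells and at 11 and 9.91 CPM in untreated cells, and Egr1 was at 217 and 233 CPM in 10 nM 1 h cells and at 4.19 and 5.16 CPM in untreated cells. Gadd45b, a stress-response gene that limits JNK signalling, rose 25.8-fold, and Ier3 rose 11.1-fold. Fos was modest in this company: 166 and 187 CPM in 10 nM 1 h cells and 68.5 and 94.8 CPM in untreated cells (log2 fold change 1.11 ± 0.26, edgeR quasi-likelihood adjusted p = 0.0119). Leaving out untreated cells of experiment 1, or 10 nM 1 h cells of experiment 2, ended this call. At 0.03 nM for 1 h Fos stood at 220.5 and 318 CPM, and the difference between the doses did not pass the test (adjusted p = 0.106, edgeR). The 2 that fell were Ier5l (log2 -2.79 ± 0.53) and Klf10 (-0.32 ± 0.08, not called without the 10 nM 1 h library or the untreated library of experiment 1), and Klf4 and Mafk were not called.

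By 2 h at 10 nM, when 28.6% of all genes tested were higher and 30.1% lower than in untreated cells, many immediate-early genes were below their 1 h level. Of the 35, 24 were lower at 2 h than at 1 h and 1 was higher, against 21.5% lower and 21.3% higher over all genes tested. Nr4a1, an orphan nuclear receptor, stood at 393 and 361 CPM in 10 nM 1 h cells, against 8.91 and 9.64 CPM in untreated cells, and at 11.5 and 15.4 CPM after 2 h at 10 nM. The difference of 2 h over 1 h was -4.82 ± 0.18 on the log2 scale. Egr1 had 14.1 and 22.3 CPM at 2 h (log2 difference -3.63 ± 0.22). Fos, at 17.5 and 25.5 CPM after 2 h, was below both its 1 h level and the untreated level. The 1 that was higher at 2 h was Mafk, with 165 and 183 CPM at 2 h against 34.96 and 36.5 CPM at 1 h. These genes were chosen for the size of the 1 h change or for list membership, and the 2 h and 1 h comparisons share the 10 nM 1 h libraries.

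**Figure D2:**
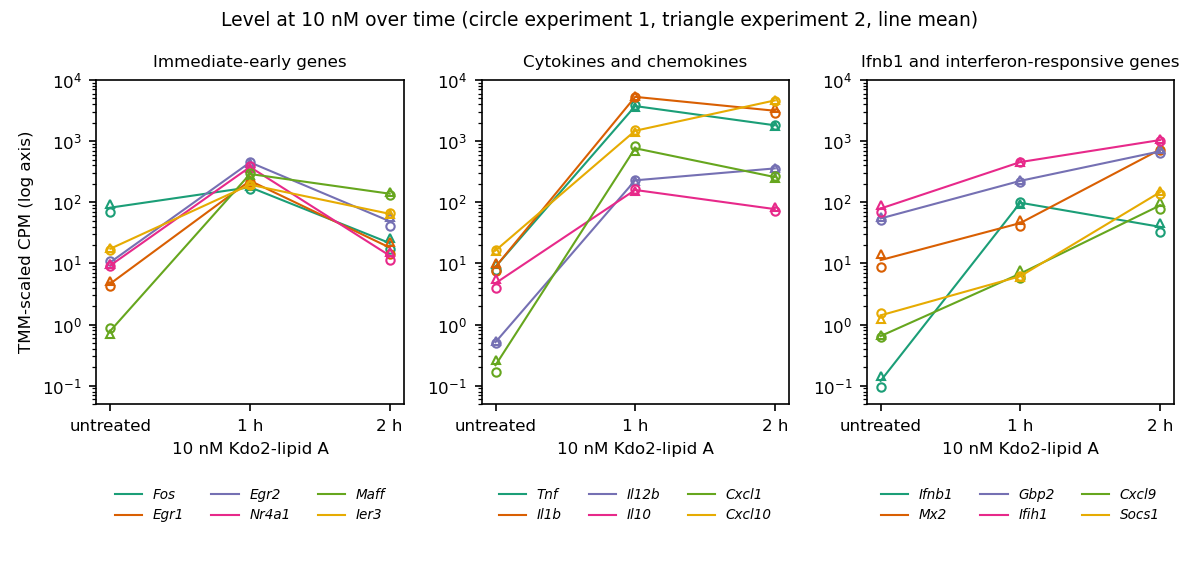
TMM-scaled CPM on a log axis in untreated cells and after 1 h and 2 h at 10 nM for 6 genes in each of 3 sets, with a circle for experiment 1, a triangle for experiment 2 and a line through the means. The 6 immediate-early genes are lower at 2 h than at 1 h, whereas Mx2, Gbp2, Ifih1, Cxcl9 and Socs1 are higher at 2 h.

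Inhibitors of NF-kB rose together with its targets. Of 19 genes for NF-kB subunits and feedback regulators, 18 rose and none fell, with a median log2 fold change of 3.11; only Tnip2 was not called (log2 0.21 ± 0.09). Tnfaip3, which encodes the ubiquitin-editing inhibitor A20, stood at 3809 and 3734 CPM in 10 nM 1 h cells and at 32.8 and 35.5 CPM in untreated cells (110.4-fold). Nfkbia, the gene of the inhibitor IkB alpha, stood at 1609 and 1595 CPM in 10 nM 1 h cells and at 66.1 and 65.7 CPM in untreated cells (24.3-fold). Both were already above untreated levels at 0.03 nM, with 163 and 222 CPM for Tnfaip3 and 262 and 325 CPM for Nfkbia, and higher again at 10 nM. Tnip1, a partner of A20, and Nfkbid, a nuclear inhibitor of the family, rose 8.49-fold and 9.60-fold. At 2 h the level of Nfkbid was below that at 1 h (log2 difference -1.63 ± 0.10), while for Nfkbia it was not called different (0.06 ± 0.09).

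Regulators of cytokine mRNA decay mostly rose. Of 12 tested, 8 rose and 2 fell, a share of falls near the 18.3% of all genes, and with library totals 6 rose and 4 fell. Zfp36, whose product tristetraprolin binds AU-rich elements of cytokine mRNAs, stood at 2737 and 2685 CPM in 10 nM 1 h cells and at 84.4 and 91.4 CPM in untreated cells (30.8-fold). Zc3h12a, the gene of the endonuclease regnase-1, rose 8.14-fold, and N4bp1 rose 5.31-fold. Zc3h12d, a relative of Zc3h12a, fell to 27.99 and 26.3 CPM in 10 nM 1 h cells, against 59.3 and 65.04 CPM in untreated cells, and Zfp36l2, a relative of Zfp36, fell to 247 and 211 CPM in 10 nM 1 h cells, against 444 and 489 CPM in untreated cells.

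MAP kinase phosphatases and other brakes on kinase signalling rose in 13 of 17 cases, 11 of them at least 4-fold, and 1 fell (13 and 3 with library totals), with a median log2 fold change of 2.66. Dusp2 stood at 478 and 449 CPM in 10 nM 1 h cells and at 2.22 and 2.75 CPM in untreated cells (187-fold), and Dusp5, an ERK phosphatase of the nucleus, rose 81.8-fold. Errfi1, a feedback inhibitor of EGF receptor signalling, stood at 1084 and 1143 CPM in 10 nM 1 h cells and at 8.41 and 9.96 CPM in untreated cells (121-fold). Spred2, an inhibitor of the RAS to ERK path, rose 6.30-fold. Dusp6, the cytoplasmic ERK phosphatase, was the 1 that fell (log2 -0.74 ± 0.20), a call lost without experiment 1 of the 10 nM 1 h group or experiment 2 of the untreated group. Dusp6 was at 6.22 and 7.14 CPM in 10 nM 1 h cells, 10.4 and 12.01 CPM in untreated cells and 19.02 and 22.6 CPM after 1 h at 0.03 nM.

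Among anti-inflammatory cytokines and JAK-STAT feedback genes, 11 of 18 rose and 2 fell. Socs3, which blocks signalling by interleukin-6 family receptors, stood at 1858 and 1786 CPM in 10 nM 1 h cells and at 2.38 and 3.64 CPM in untreated cells (605-fold). Cish, another member of that inhibitor family, rose 33.8-fold, and Nfil3, a basic leucine zipper factor, rose 5.74-fold. Socs1, the inhibitor of interferon receptor signalling, was low at 1 h, with 6.27 and 6.05 CPM in 10 nM 1 h cells and 1.57 and 1.25 CPM in untreated cells. It was at 137 and 154 CPM after 2 h at 10 nM, a log2 difference over 1 h of 4.56 ± 0.28. Socs6 and Pias3 fell, by 0.96 and 0.68 on the log2 scale.

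The receptor apparatus itself changed less than its targets. Of 34 Toll-like receptors, adaptors and kinases, 22 rose and 3 fell, but only 4 rises reached 4-fold, and the median log2 fold change was 0.48. Tlr4 was not called different: 102 and 104 CPM in 10 nM 1 h cells and 119 and 133 CPM in untreated cells (log2 -0.29 ± 0.13; edgeR adjusted p = 0.113). Tlr2, the receptor for bacterial lipoproteins, stood at 1647 and 1635 CPM in 10 nM 1 h cells and at 153 and 151 CPM in untreated cells (10.8-fold). Cd14, the co-receptor that hands lipopolysaccharide to TLR4, rose 6.02-fold to 3185 and 3233 CPM in 10 nM 1 h cells, against 543 and 524 CPM in untreated cells. The kinase gene Irak2 rose 6.22-fold, the ubiquitin ligase gene Peli1 8.49-fold and the adaptor gene Myd88 2.32-fold. The 3 that fell were Tab1, Tirap and Ikbkg, by 0.99, 0.57 and 0.31 on the log2 scale; Ikbkg was no longer called when any 1 of the 4 libraries was left out, and with library totals 15 of the list were called higher and 8 lower.

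Surface proteins for adhesion and T cell co-stimulation rose in 17 of 18 cases, 12 of them at least 4-fold, with a median log2 fold change of 4.003. Tnfsf9, the ligand 4-1BBL, stood at 1661 and 1555 CPM in 10 nM 1 h cells and at 2.0 and 2.19 CPM in untreated cells (766-fold). Icam1, the ligand of leukocyte integrins, stood at 2931 and 2826 CPM in 10 nM 1 h cells and at 110.1 and 109.7 CPM in untreated cells (26.2-fold). The proteoglycan gene Sdc4 reached 5636 and 5258 CPM in 10 nM 1 h cells, against 147 and 147 CPM in untreated cells, and Cd83, a marker of mature dendritic cells, rose 25.3-fold. Sele, which encodes the adhesion molecule E-selectin known mainly from endothelium, had no read in untreated cells and 11.5 and 10.1 CPM in 10 nM 1 h cells, at least 299-fold higher. In the endothelial and stromal list, 0 of 14 genes were called, and 1 with the experiment as a block. Without the block none had an unadjusted p under 0.05 or was called by DESeq2 or limma-voom. Which cells the Sele reads came from was not tested.

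Of 30 phagocyte and G protein-coupled receptor genes, 20 rose and 4 fell, a smaller share of falls than the 18.3% of all genes; with library totals 17 rose and 8 fell. Olr1, a scavenger receptor for oxidised lipoprotein, had 2 reads in untreated cells and 65.6 and 69.9 CPM in 10 nM 1 h cells (count ratio 2832, 95% exact counting interval 784 to 23395). Ccrl2, a chemerin-binding receptor, stood at 639.9 and 603 CPM in 10 nM 1 h cells and at 4.95 and 6.39 CPM in untreated cells (109.5-fold). The complement receptor gene C5ar1 rose 3.23-fold from a high level, Clec5a 5.55-fold and the adenosine receptor gene Adora2a 27.8-fold. Gpr146, Lpar5, Cxcr4 and Adora3 fell, though Adora3 was no longer called when any 1 of the 4 libraries was left out. Cxcr4, the receptor for CXCL12, was at 73.2 and 69.6 CPM in 10 nM 1 h cells and 172 and 148 CPM in untreated cells, and at 5.42 and 7.18 CPM after 2 h at 10 nM.

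Effector enzymes and proteases rose in 20 of 24 cases and fell in none, 15 at least 4-fold, with a median log2 fold change of 3.26. Ptgs2, the inducible cyclooxygenase of prostaglandin synthesis, stood at 1148 and 1049 CPM in 10 nM 1 h cells and at 1.12 and 1.52 CPM in untreated cells (831-fold). Irg1, whose enzyme makes the antimicrobial metabolite itaconate, stood at 1959.8 and 2196 CPM in 10 nM 1 h cells and at 1.29 and 3.42 CPM in untreated cells (log2 9.79 ± 0.80), and its untreated level was more than 2-fold higher in experiment 2 than in experiment 1. Ch25h, which makes the antiviral 25-hydroxycholesterol, rose 114-fold. Sod2, the mitochondrial superoxide dismutase, stood at 742 and 740.2 CPM in 10 nM 1 h cells and at 63.2 and 59.7 CPM in untreated cells. Plaur, the urokinase receptor gene, rose 22.5-fold. Adamts4, an aggrecan-cleaving protease, had 2 reads in untreated cells and 22.2 and 28.3 CPM in 10 nM 1 h cells (count ratio 1059, interval 293 to 8748). Nos2, the inducible nitric oxide synthase, was still low, with 2.69 and 4.47 CPM in 10 nM 1 h cells and 0.143 and 0.0964 CPM in untreated cells, and it was at 45.96 and 53.7 CPM after 2 h at 10 nM.

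Most interferon-stimulated genes had not passed the test at 1 h. Of 38, 11 rose and none fell, 8 of them at least 4-fold, with a median log2 fold change of 0.45, and with library totals 9 rose and 2 fell; at 2 h, 32 of the 38 were higher than at 1 h and none lower. Gbp5, a guanylate-binding protein of cell-autonomous defence, stood at 477 and 448 CPM in 10 nM 1 h cells and at 11.1 and 11.8 CPM in untreated cells (40.4-fold). Ifih1, the RNA sensor MDA5, stood at 461 and 448 CPM in 10 nM 1 h cells and at 68.5 and 89.5 CPM in untreated cells. Gbp2 and Gbp3 rose 4.12-fold and 3.50-fold. Mx2, an antiviral GTPase, stood at 40.8 and 50.6 CPM in 10 nM 1 h cells and at 8.67 and 13.98 CPM in untreated cells, and at 718 and 735 CPM after 2 h at 10 nM (log2 over 1 h 3.99 ± 0.43). The list differed between the experiments: it was higher in experiment 2 for 36 of 38 genes in 10 nM 1 h cells and for 38 of 38 in untreated cells, by medians of 0.24 and 0.46 on the log2 scale. With the experiment as a block, 20 of the 38 rose and 1 fell; without the untreated library of experiment 1, 6 rose, and Cmpk2, Isg15, Mx2, Oasl1 and Rtp4 were no longer called.

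Survival genes included both large rises and a large fall. Of 22 BCL2 family and apoptosis genes, 10 rose (45.5%, against 18.5% of all genes tested) and 4 fell. The share of falls, 18.2%, was that of all genes tested, 18.3%. With library totals 9 rose and 7 fell. Bcl2a1b, an anti-apoptotic gene with near-identical copies, was at 701 and 754 CPM in 10 nM 1 h cells and at 28.4 and 25.5 CPM in untreated cells, and Bcl2a1d and Bcl2a1a rose as well, though reads can be split among these copies and their separate values are uncertain. Bcl2l11, the gene of the pro-apoptotic protein BIM, rose 5.46-fold, whereas Bmf, another pro-apoptotic member, fell to 4.51 and 4.78 CPM in 10 nM 1 h cells, against 57.2 and 56.4 CPM in untreated cells (12.2-fold lower). Pmaip1 and Fas, also pro-apoptotic, rose at least 4-fold, each more than Bcl2l11. Bid, Casp9 and Bbc3, all pro-apoptotic, fell by 0.82, 0.81 and 0.71 on the log2 scale. Of 13 inflammasome genes, 10 rose and 1, the adaptor gene Pycard, fell, and with library totals 6 rose and 2 fell. Nlrp3, the sensor that assembles the main inflammasome, stood at 2433 and 2461 CPM in 10 nM 1 h cells and at 79.2 and 83.02 CPM in untreated cells (30.2-fold). Casp4, the murine caspase-11 that senses lipopolysaccharide in the cytosol, rose 6.83-fold, Mefv 10.2-fold and the kinase gene Ripk2 20.8-fold.

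Regulators of BMP and TGF-beta signalling differed in how they followed the dose. Of 18, 10 rose and 2 fell against untreated cells (10 and 7 with library totals), and 4 were lower and 7 higher at 10 nM than at 0.03 nM after 1 h, where the lower share is near the 17.3% of all genes tested. Id3, an inhibitor of basic helix-loop-helix factors, stood at 329 and 322 CPM in 10 nM 1 h cells and at 22.4 and 19.6 CPM in untreated cells (15.5-fold), with 181 and 223 CPM after 1 h at 0.03 nM. Smad6 and Smad7, inhibitors of the SMAD pathway, were higher at the low dose. Smad6 was at 2.54 and 2.14 CPM in 10 nM 1 h cells and at 9.52 and 12.8 CPM at 0.03 nM, a log2 difference of -2.25 ± 0.20, against 0.881 and 1.13 CPM in untreated cells. Smad7 was at 6.65 and 6.24 CPM in 10 nM 1 h cells and at 12.6 and 13.3 CPM at 0.03 nM (log2 -1.01 ± 0.13). Klf10, an early TGF-beta target from the immediate-early list, was also lower at 10 nM, with 26.3 and 27.97 CPM in 10 nM 1 h cells and 61.3 and 59.9 CPM at 0.03 nM (log2 -1.16 ± 0.08). Skil, a SMAD co-repressor gene, rose 14.3-fold over untreated cells, Id2 5.77-fold and Tgif1 4.01-fold.

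Some metabolic genes changed. Of 24 genes of glucose uptake and glycolysis, 8 rose (33.3%, against 18.5% of all genes tested) and 1 fell (4.17%, against 18.3%). With library totals 5 rose and 12 fell. The transporter gene Slc2a1 stood at 138 and 138 CPM in 10 nM 1 h cells and at 28.2 and 26.3 CPM in untreated cells (5.06-fold), Slc2a6 rose 6.60-fold and the lactate exporter gene Slc16a3 2.66-fold. Pfkfb3, a driver of glycolytic flux, was at 153 and 154 CPM in 10 nM 1 h cells and 73.6 and 79.4 CPM in untreated cells, and its relative Pfkfb4 fell by 0.62 on the log2 scale. Of 18 sterol synthesis genes tested, 9 rose (50%, against 18.5% of all genes) and none fell, with no rise reaching 4-fold. With library totals 6 rose and 6 fell. Insig1, which retains the sterol-sensing machinery in the endoplasmic reticulum, rose 3.05-fold. Among 12 LXR genes and targets, Mylip, Nr1h3 and Abca1 rose (25%, against 18.5% of all genes) and 1 fell (8.33%, against 18.3%). With the experiment as a block 2 fell, and with library totals 2 rose and 7 fell. The 1 that fell in the main test was the cholesterol exporter gene Abcg1. It was at 244 and 238 CPM in 10 nM 1 h cells, against 319 and 337 CPM in untreated cells. Ribosomal protein genes (1 of 86 called, Rpl24, whose call was lost when any 1 of the 4 libraries was left out, and 1 more, lower, with the experiment as a block) and oxidative phosphorylation genes (1 of 88 higher, or 2 with the experiment as a block, and 4 lower) were mostly not called on the TMM scale, but with library totals 73 ribosomal and 77 oxidative phosphorylation genes were lower.

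Among 25 stress genes, 12 rose (48%, against 18.5% of all genes tested) and 4 fell (16%, near the 18.3% of all). With library totals 11 rose and 8 fell. Slc7a11, the cystine transporter gene of the antioxidant response, stood at 97.8 and 91.4 CPM in 10 nM 1 h cells and at 5.65 and 6.10 CPM in untreated cells (16.1-fold), and Txnrd1, a thioredoxin reductase, rose 3.82-fold. Mdm2, the ubiquitin ligase for p53, rose 4.29-fold. Of the stress genes Sesn1, Sesn2 and Ddit3, the falls were 2.65-fold, 2.25-fold and 1.84-fold, and that of Ddit3 was lost when any 1 of the 4 libraries was left out. Of 25 macrophage identity genes, 6 rose (24%, against 18.5% of all genes) and 3 fell (12%, against 18.3%), with a median of 0.08. With library totals 3 rose and 12 fell. Cebpb, a factor of the inflammatory response, rose 6.62-fold, and Cebpa, its relative in myeloid differentiation, fell to 44.99 and 41.2 CPM in 10 nM 1 h cells, against 118 and 119.6 CPM in untreated cells. Tfec, of the MITF family, rose 9.78-fold. Csf1r, the M-CSF receptor gene, was at 4401 and 4364 CPM in 10 nM 1 h cells and at 3873 and 3781 CPM in untreated cells, a rise of 0.20 ± 0.06 in log2 that was lost when any 1 of the 4 libraries was left out and was -0.17 with library totals. Of 26 cell cycle genes, 4 rose and 3 fell (5 with the experiment as a block), and with library totals 2 rose and 20 fell. The shares of 15.4% and 11.5% on the TMM scale were below the 18.5% and 18.3% of all genes tested. Mki67, the proliferation marker, was at 706 and 699 CPM in 10 nM 1 h cells and at 137 and 144 CPM in untreated cells, and Pcna, Aurka and Ccnd2 were the other 3 that rose, with the call of Pcna lost when any 1 library was left out. Of 15 reference genes, 6 rose and 3 fell (20%, near the 18.3% of all genes) on the TMM scale, all under 2-fold. With library totals none rose and 8 fell, and fewer rose without 1 library.

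**Figure D3:**
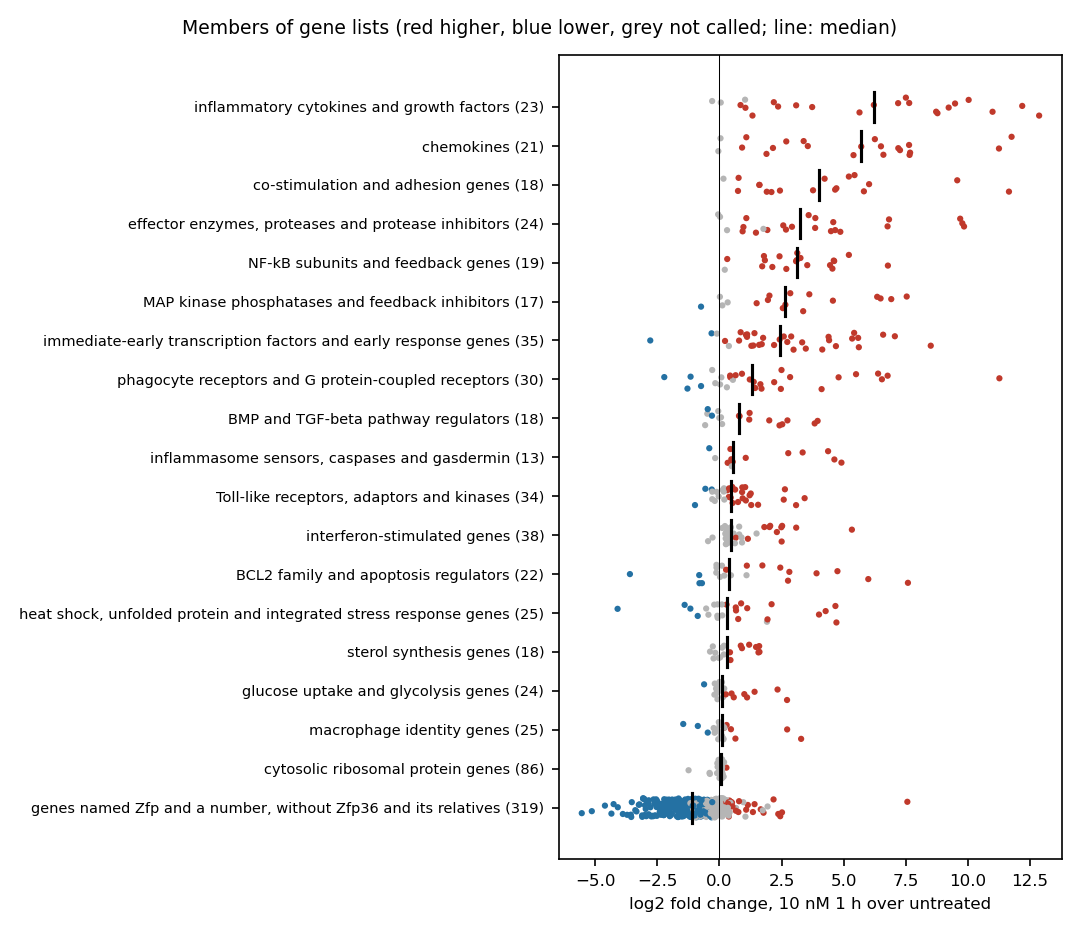
Log2 fold change (10 nM 1 h over untreated, x axis) of each tested member of 19 gene lists, with members called higher in red, lower in blue and not called in grey, the number tested in parentheses and a black line at the median. Cytokines, chemokines and co-stimulation genes lie far to the right, ribosomal protein genes around 0 and the Zfp genes to the left.

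Falls were smaller than rises, and zinc finger genes were among the largest of them. Of 319 genes named Zfp and a number (Zfp36 and its relatives left out), many of which encode DNA-binding repressors of the KRAB class, 213 fell (66.8%, against 17.1% of the 12599 other genes) and 24 rose. Of these, 162 fell at least 2-fold, and the median log2 fold change was -1.11. With library totals 260 fell and 12 rose. Zkscan14, of the same class by its name, showed the largest fall among genes whose mean CPM had a log2 of at least 1. It was at 0.376 and 0.634 CPM in 10 nM 1 h cells and at 10.5 and 9.81 CPM in untreated cells (19.8-fold lower). Zfp60 stood at 0.52 and 0.555 CPM in 10 nM 1 h cells and at 7.81 and 8.29 CPM in untreated cells (14.9-fold lower), and Zfp955b, Zfp760, Zfp472, Zfp870 and Zfp157 fell between 9.35-fold and 17.1-fold. None of these 7 genes exceeded 11.3 CPM in an untreated library. Better covered members fell too: Zfp90 was at 11.6 and 12.3 CPM in 10 nM 1 h cells and at 36.9 and 37.97 CPM in untreated cells. Zfp263 and Zfp719 went the other way, with rises of 5.45-fold and 5.73-fold, and Zfp819 had 28 and 17 reads in 10 nM 1 h cells against none in untreated cells. At 0.03 nM for 1 h, 1 Zfp gene was called higher and none lower than in untreated cells, and 209 were lower at 10 nM than at 0.03 nM.

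Txnip, an arrestin-like inhibitor of glucose uptake and of thioredoxin, was the most abundant of the genes lowered at least 4-fold. It stood at 38.98 and 52.4 CPM in 10 nM 1 h cells and at 789 and 786 CPM in untreated cells (17.2-fold lower), with 732 and 653 CPM at 0.03 nM for 1 h. By RPKM it ranked 4033 in 10 nM 1 h cells and 205 in untreated cells. After 2 h at 10 nM it was at 132 and 139 CPM, above the 1 h level (log2 1.57 ± 0.12). An exon of Txnip overlaps Gm15441 on the opposite strand, so the pair's reads may be mixed. Angptl4, an inhibitor of lipoprotein lipase, fell to 2.40 and 1.74 CPM in 10 nM 1 h cells, against 16.9 and 20.2 CPM in untreated cells. The chromatin and transcription genes Cbx8, of Polycomb repressive complex 1, Med18, of Mediator, and Wdr5b fell 11.04-fold, 9.24-fold and 12.9-fold, and Vamp1, a vesicle fusion gene, 9.13-fold.

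Genes that changed strongly within the hour were shorter than the rest. Gene span, from first to last base in the count table, had a median of 13.5 kb in the 482 genes raised at least 4-fold and of 10.1 kb in the 710 lowered at least 2-fold, against 20.7 kb over all genes tested. Genes raised under 2-fold were long, with a median of 39.0 kb and 12 exons, against 5 exons in genes raised at least 4-fold and 9 in all. By span, rises of at least 4-fold made up 9.89% of the 748 genes up to 2.5 kb and 1.33% of the 675 genes over 160 kb. Falls of at least 2-fold made up 10.96% and 0.148% of those bins, and 6.30% of the 270 genes up to 1.25 kb. Rises of any size ran the other way, with 14.6% of genes up to 2.5 kb and 27.0% of genes over 160 kb. Single-exon genes were 9.13% of genes raised at least 4-fold and 11.3% of those lowered at least 2-fold, against 3.84% of all. Span was not separated here from expression level or gene class, and the Zfp genes alone had a median span of 15.2 kb.

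**Figure D4:**
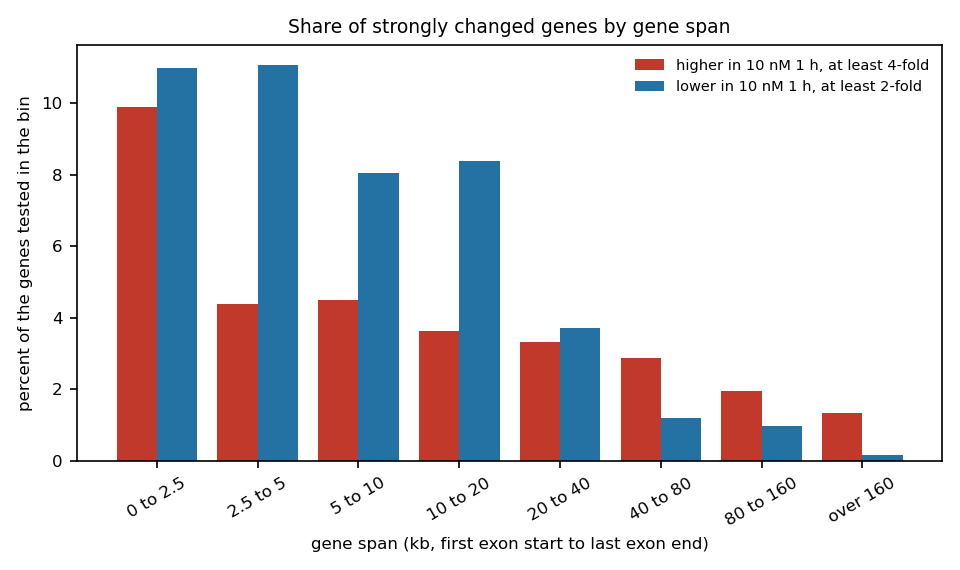
Percent of the genes tested in each gene span bin (x axis, kb) that were at least 4-fold higher (red) or at least 2-fold lower (blue) in 10 nM 1 h cells than in untreated cells. Both shares are highest in a bin under 5 kb and lowest in genes over 160 kb.

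MicroRNA loci were counted too, as reads of polyadenylated RNA over the hairpin, which are not levels of the mature microRNA. Of 80 loci tested, 17 rose (21.25%) and 7 fell (8.75%). The share of rises was near the 18.5% of all genes tested, and the share of falls was below their 18.3%. With library totals 13 rose and 18 fell, and fewer loci were called without 1 library. The mature RefSeq sequences of 5 that rose and were called under each leave-out are shown, 5′ to 3′ with the seed (bases 2 to 8) in capitals; miR-221-3p and miR-222-3p share theirs.
miR-155-5p: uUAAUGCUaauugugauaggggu
miR-221-3p: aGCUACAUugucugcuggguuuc
miR-222-3p: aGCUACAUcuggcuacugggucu
miR-21a-5p: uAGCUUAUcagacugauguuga
miR-146a-5p: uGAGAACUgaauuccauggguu
Mir155, a locus long tied to macrophage activation, had no read in untreated cells and 2.98 and 3.52 CPM in 10 nM 1 h cells, at least 90.7-fold higher. Mir221 was at 12 and 9.70 CPM in 10 nM 1 h cells and at 0.357 and 0.313 CPM in untreated cells (32.02-fold), and its neighbour on chromosome X, Mir222, was at 1.27 and 0.952 CPM in 10 nM 1 h cells and at 0.0953 and 0.0482 CPM in untreated cells. Mir146, whose product targets Irak1 and Traf6, rose 4.71-fold, to 1.36 and 0.925 CPM in 10 nM 1 h cells, against 0.333 and 0.145 CPM in untreated cells. Mir21 rose 7.25-fold, but its reads overlap an exon of Vmp1 on the same strand. Mir22 rose 4.78-fold and overlaps an exon of 2210403K04Rik, and Mir3064 (1.75-fold) lies over an exon of Ddx5.

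Other genes with the largest rises had mixed roles. Areg, the gene of the epidermal growth factor ligand amphiregulin, had no read in untreated cells and 7.78 and 7.80 CPM in 10 nM 1 h cells, at least 217-fold higher, and only 0.788 and 2.46 CPM after 2 h at 10 nM. A1cf, an RNA-binding cofactor of APOBEC1, and Gm10791 also had no read in untreated cells, with 4.34 and 4.63 and 3.73 and 4.49 CPM in 10 nM 1 h cells, at least 125-fold and 115-fold higher. Against the 0.03 nM 1 h cells, the largest rises in the 10 nM 1 h cells were Il6, Csf2, Il23a, Ifnb1 and Areg, with log2 differences of 9.05 ± 0.24, 8.93 ± 0.25, 8.58 ± 0.40, 8.18 ± 0.25 and 8.15 ± 0.74. Il6, Csf2, Il23a and Areg had no more than 0.216 CPM in any 0.03 nM 1 h library, so their differences rest on a few reads there. The ± values, taken from the test statistic, can be too small for so few reads.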

How the data were processed

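Raw read counts per gene were deposited by the authors for 10 poly-A RNA libraries with coordinates on mm9; featureCounts 1.4.5-p1, TopHat2 2.0.11, bcl2fastq 2.15.0.4 and DESeq2 are listed, without settings, per the submitters' processing notes. Kits were directional, per the labels' protocols. Counts were tested with edgeR 4.0.16 (quasi-likelihood, robust, filterByExpr, TMM) on all 10 libraries in 5 groups, which left 5 residual degrees of freedom, with Benjamini-Hochberg adjustment over 12918 genes. The experiment number pairs the libraries per the labels; the deviations of same-numbered libraries correlated at 0.0397 to 0.236 in 10 pairs of groups, over 0.1 in 7. The planned test had no block, and blocked values stand beside the list counts that moved by over 1.5-fold. Alternatives used DESeq2 1.42.0, limma-voom 3.58.1 (R 4.3.3), other scalings, no count filter, fewer libraries and the block. The test was tested on simulated data.

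Members, gene lists and tests were chosen with earlier results of these data known, some lists from an earlier pass over the same files. List shares set beside those of all genes therefore describe these data, and no set test was run. Named by rule were the 15 strongest called rises and 15 strongest falls where the log2 of the mean CPM was 1 or more. That mean was over the 4 libraries, so genes with no untreated read passed by their 10 nM 1 h level alone. Also named were the 4 called members of each list with the smallest p, not the largest change (all where up to 5 were called). The 5 largest dose and time differences each way were named too. Members that fell or were not called, Zfp90, Mir3064 and a few others were named after their values were seen. The experiments are independent per the labels, with 2 libraries a group, so errors rest on 2 values. Totals over 10 libraries were 33179599 to 42167096 counts. Promoters and microRNAs came from RefSeq (GRCm38.p6), matched by symbol for 12819 genes, of which 10129 had a promoter. Some items are not reported here.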

Additional observations from a re-analysis of the deposited data

Results flagged for a closer look

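Among the genes described here, 3 were called against untreated cells in opposite directions at 1 h and at 2 h of 10 nM, and the difference of the times was itself tested (edgeR's quasi-likelihood test with Benjamini-Hochberg adjustment). Both times are set against the same untreated libraries.

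Ccnj, a cyclin gene, was at 1.01 and 1.82 CPM in 10 nM 1 h cells, 24.5 and 24.6 CPM after 2 h at 10 nM and 9.08 and 9.16 CPM in untreated cells, with a difference of 2 h over 1 h of 4.10 ± 0.20 on the log2 scale (adjusted p = 5.2e-08, edgeR). It was below untreated cells in both experiments at 1 h and above them in both at 2 h. Fos was at 166 and 187 CPM in 10 nM 1 h cells, 17.5 and 25.5 CPM after 2 h at 10 nM and 68.5 and 94.8 CPM in untreated cells, with a difference of -3.03 ± 0.28 (adjusted p = 9.57e-05, edgeR). Mylip, a ubiquitin ligase gene, was at 194 and 173 CPM in 10 nM 1 h cells, 64.8 and 66.2 CPM after 2 h at 10 nM and 89.7 and 84.2 CPM in untreated cells, with a difference of -1.48 ± 0.09 (adjusted p = 2.9e-07, edgeR).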

How the results depend on the processing

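With library totals, 8035 genes were called against untreated cells (1280 higher, 6755 lower), 7789 against 0.03 nM (1205 higher, 6584 lower), and for 2 h over 1 h 1759 were higher and 4270 lower; Atp5b, Csf1r and Rpl24 turned to -0.12, -0.17 and -0.087 (log2), and 9 of the 149 calls named by rule were lost. With halved span bins, 6.30% of the shortest genes fell at least 2-fold, against 10.96%. With the experiment as a replicate block, 4947 genes were called, 4724 of them among the 4761, none of these 149 was lost, and the list counts it moved by over 1.5-fold stand in the report; with the 4 libraries alone and the block, 6726 were called. Without 1 library, 3387 to 3548 genes were called (1760 to 1842 higher, 1592 to 1713 lower), 3277 to 3583 against 0.03 nM (1701 to 1877 higher, 1526 to 1706 lower) and 4024 to 4393 for time (1985 to 2155 higher, 2039 to 2238 lower), and list calls were 292 to 298 against 327 of 532 members; the lone library of its group is then assumed to vary like the others. Of the 149, 132 held under every alternative that included the comparison with untreated cells. Of the 16 alternatives, those without a 0.03 nM 1 h or a 10 nM 2 h library did not include it. Losses among other list members, such as Klf10 and Ddit3, are not in this count. With 2 libraries a group, small changes could be missed, and low genes rest on few reads.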

Other observations

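Nov, which encodes the secreted matricellular protein CCN3 (chr15:54577483-54585316, mm9), was at 1212 CPM, or 41932 counts, in experiment 1 of the 10 nM 1 h cells and at 0.396 CPM, or 15 counts, in experiment 2, against 0.310 and 0.193 CPM in untreated cells. It was at 0.289 and 0.647 CPM after 1 h at 0.03 nM and at 0.722 and 2.84 CPM after 2 h at 10 nM. Of 12918 genes tested, Nov alone differed by over 8-fold between the experiments in 10 nM 1 h cells, and none did in untreated cells (with 0.5 CPM added). edgeR's quasi-likelihood test did not call it (log2 11.22 ± 3.72, Benjamini-Hochberg adjusted p = 0.0716), while DESeq2 gave an adjusted p of 2.42e-07, and without experiment 1 of the 10 nM 1 h group the edgeR log2 fold change was 0.65 ± 0.92. What set this library apart was not tested.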
